A study of Mus musculus with 12 samples.

Results

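Promoter methylation of germline and pluripotency genes was examined in colon epithelium of mice with induced Dnmt3b. The genes were taken from a list of 38 symbols of meiosis, the piRNA pathway, sperm formation and pluripotency, and kept where they had a value in all 6 libraries of a fragment-size fraction. This left 20 of the 38 genes, 16 among short and 12 among long fragments, with 8 in both, out of 10027 and 6127 genes measured in this way. In 3 induced C57BL/6 mice Dnmt3b was switched on by drinking water that held doxycycline at 0.5 g/l over 3 months, and 3 control C57BL/6 mice drank regular water. Epithelial cells isolated from the colon of each mouse gave 1 short-fragment (40 to 120 nt) and 1 long-fragment (120 to 220 nt) library of reduced representation bisulfite sequencing, in which DNA is cut by MspI at CCGG and unmethylated cytosine is read as thymine. The labels say neither whether control mice carried the inducible transgene nor which promoter drives it, and the effect of doxycycline cannot be told apart from that of Dnmt3b. Levels are the mean CpG methylation of a gene's RefSeq promoters in percent, and changes are in percentage points.

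Dnmt3b is one of the enzymes that place methyl groups on unmethylated CpGs. During embryonic development it methylates a group of CpG-rich germline promoters, which then stay methylated and silent in body tissues, while most other CpG-rich promoters remain unmethylated. In the mouse, repression of germline genes before that point involves a complex that holds E2F6 and the MGA and MAX proteins, whose pair binds the E-box CACGTG. Colon epithelium makes neither germ cells nor pluripotent cells, and a methylation level at a promoter says nothing of how much RNA the gene makes.

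The promoters of 6 genes carry the main contrast of the results and are shown as the RefSeq windows of build GRCm38.p6, from 250 bases before to 50 after the start of transcription, written 5′ to 3′ along the gene. Capitals mark every CpG and every whole E-box CACGTG. Mael (chr1:166238695-166238994, minus strand), Hormad1 (chr3:95559427-95559726, plus strand) and Sycp3 (chr10:88459337-88459636, plus strand) were methylated in control mice, Dazl (chr17:50293571-50293870, minus strand) was partly methylated, and Stag3 (chr5:138280259-138280558, plus strand) and Tssk3 (chr4:129490721-129491020, minus strand) had low levels.
Mael: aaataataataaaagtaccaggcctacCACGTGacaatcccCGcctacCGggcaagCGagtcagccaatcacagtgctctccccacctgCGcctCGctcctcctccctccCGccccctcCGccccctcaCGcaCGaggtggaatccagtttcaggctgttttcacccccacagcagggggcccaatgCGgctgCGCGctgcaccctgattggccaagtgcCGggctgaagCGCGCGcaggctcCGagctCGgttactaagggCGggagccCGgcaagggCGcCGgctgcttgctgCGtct
Hormad1: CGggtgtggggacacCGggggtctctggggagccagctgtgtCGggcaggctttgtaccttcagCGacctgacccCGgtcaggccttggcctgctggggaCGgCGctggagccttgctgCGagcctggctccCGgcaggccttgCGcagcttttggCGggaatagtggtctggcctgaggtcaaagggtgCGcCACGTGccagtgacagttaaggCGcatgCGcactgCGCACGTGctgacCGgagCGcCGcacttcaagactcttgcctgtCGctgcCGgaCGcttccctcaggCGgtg
Sycp3: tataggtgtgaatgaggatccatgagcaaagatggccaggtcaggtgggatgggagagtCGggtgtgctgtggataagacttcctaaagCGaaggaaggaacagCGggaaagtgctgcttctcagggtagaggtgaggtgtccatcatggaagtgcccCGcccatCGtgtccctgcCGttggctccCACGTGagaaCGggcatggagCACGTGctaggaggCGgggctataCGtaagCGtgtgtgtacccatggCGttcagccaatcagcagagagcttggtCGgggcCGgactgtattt
Dazl: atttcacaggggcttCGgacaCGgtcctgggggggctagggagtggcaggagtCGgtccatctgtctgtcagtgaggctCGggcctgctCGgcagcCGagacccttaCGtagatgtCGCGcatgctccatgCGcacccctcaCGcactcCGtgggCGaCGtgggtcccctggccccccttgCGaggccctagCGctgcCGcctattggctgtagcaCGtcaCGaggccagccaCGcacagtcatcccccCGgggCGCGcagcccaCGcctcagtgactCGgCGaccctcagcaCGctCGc
Stag3: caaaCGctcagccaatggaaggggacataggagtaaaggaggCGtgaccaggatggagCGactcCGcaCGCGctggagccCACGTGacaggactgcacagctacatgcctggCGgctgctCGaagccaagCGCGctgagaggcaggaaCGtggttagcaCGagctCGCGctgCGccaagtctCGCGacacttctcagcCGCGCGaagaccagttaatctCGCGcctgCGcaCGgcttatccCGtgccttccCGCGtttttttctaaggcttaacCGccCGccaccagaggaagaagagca
Tssk3: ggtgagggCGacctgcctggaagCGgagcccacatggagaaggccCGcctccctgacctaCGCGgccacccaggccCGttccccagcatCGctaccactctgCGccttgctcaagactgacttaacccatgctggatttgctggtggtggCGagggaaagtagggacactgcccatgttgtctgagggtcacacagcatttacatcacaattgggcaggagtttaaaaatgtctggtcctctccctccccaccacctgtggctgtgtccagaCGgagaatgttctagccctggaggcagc

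The printed windows differed in their number of CpGs. The Mael window held 24 CpGs, that of Hormad1 24, that of Sycp3 15 and that of Dazl 28, against 30 in Stag3 and 10 in Tssk3. The windows of Stag3 and Tssk3 held no CCGG, so no MspI cut site lies within the sequence printed for them. Sycp3 and Dazl held 1 CCGG each. Whole fragments of the sequenced sizes lay inside the windows of Mael (1 short, 1 long) and Hormad1 (3 short). The windows of Sycp3, Dazl, Stag3 and Tssk3 held none. The CpGs measured for a gene therefore need not be those marked. Hormad1 and Sycp3 had 2 E-boxes each, Mael and Stag3 had 1 each, and none was found in Dazl or Tssk3, counting both strands of a motif that reads the same on each.

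The genes were split by their mean control level at 50%, and since that used the control values, the levels within a class are a description. Below, germline genes means all listed genes, with the pluripotency gene Pou5f1 among them. In the short fraction 11 of the 16 genes (68.75%) were methylated in control mice, beside 227 of the 10027 genes tested (2.26%). In the long fraction 9 of 12 genes (75%) were methylated, beside 163 of 6127 (2.66%). The list was chosen with earlier results of these data known, so these shares are no test of enrichment. Nearest to the split were Pou5f1 at 58.4% and Dazl at 42.2% of control methylation among short fragments, and Smc1b at 59.3% and Dazl at 42.4% among long fragments. All 8 genes with values in all 12 libraries fell in the same class in each fraction. Smc1b, which lacked a control value among short fragments, fell on opposite sides of the split. Its control mean was 11.8% among short and 59.3% among long fragments.

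Sequence did not enter this split. A RefSeq window was found for 32 of the 38 genes and for 17 of the 20 genes measured; Tdrd6, Spo11 and Piwil2 were not matched. Among the methylated genes of the short fraction the median window held 21.5 CpGs (n = 10 with a window), beside 8.25 in all 184 methylated genes with a window and 23 in the 7793 genes below 50%. In the long fraction the medians were 23 for the methylated germline genes (n = 8), 11 for all 127 methylated genes and 24 for the 4678 genes below 50%. An E-box CACGTG was present in 8 of 10 methylated germline genes of the short fraction (80%), beside 12.5% of all methylated genes and 12.02% of genes below 50%. In the long fraction it was present in 5 of 8 (62.5%), beside 14.96% and 12.5%. Germline genes below 50% held it in 2 of 4 windows (short) and 1 of 3 (long). Tex14, Tex101, Asz1 and Zfp42, above 50% in every library that listed them, held it in 0 of 4 windows. The listed genes without any value held it in 4 of 11 windows. Over all 38 listed genes it was found in 15 of 32 with a window (46.9%), so the shares above cover the measured genes only. GCGGGAA, part of the E2F site and searched on both strands, was found in 5 of the 10 methylated germline genes of the short fraction and 2 of the 4 below 50%, beside 10.3% of all genes tested. In the long fraction it was found in 4 of 8 and 1 of 3, beside 10.4%. Of all 27025 genes with a window, 8.09% held CACGTG and 5.29% held GCGGGAA; the motifs can share no more than an end base. A gene was counted when any of its windows held the motif. A match is a match of letters only.

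**Figure D1:**
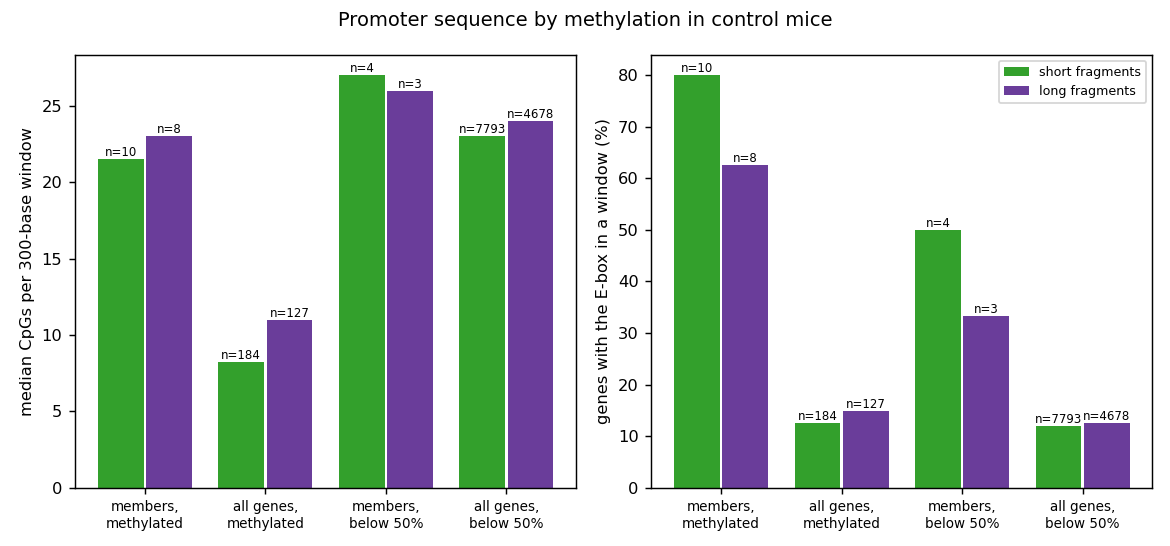
Median number of CpGs per RefSeq promoter window (left) and percent of genes with the E-box CACGTG in a window (right), for germline and pluripotency genes (members) and all genes tested, split by the mean control level at 50%; green bars are short and purple bars long fragments, and n is the number of genes with a window. Methylated members had 21.5 and 23 CpGs per window, beside 8.25 and 11 in all methylated genes.

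Part of the germline promoters rose in induced mice, and none fell. Among short fragments 8 of 16 genes rose (limma, adjusted p under 0.05), beside 27.6% of all genes tested. Among long fragments 5 of 12 rose, beside 23.2%. None of the genes fell in limma, and 0 were lower at an unadjusted p under 0.05, while 0.0798% (short) and 0.0163% (long) of all genes fell. The lowest induced mouse was above the highest control mouse for 12 of 16 genes (short) and 6 of 12 genes (long), beside 39.5% and 38.2% of all genes. The median change was 12.1 points in the short and 9.65 points in the long fraction, beside 0.50 and 0.943 points over all genes. These sets differ in control level. Among genes methylated in controls the median change was 10.3 points, beside 8.83 over all such genes (short). In the long fraction it was 6.77 points, below the 8.40 over all such genes. Among genes below 50% it was 30.7 beside 0.457 points (short) and 24.5 beside 0.833 points (long). The long-fraction count of 5 was 2 without induced mouse 2 or 3, and 2, 1 and 3 without control mouse 1, 2 and 3.

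**Figure D2:**
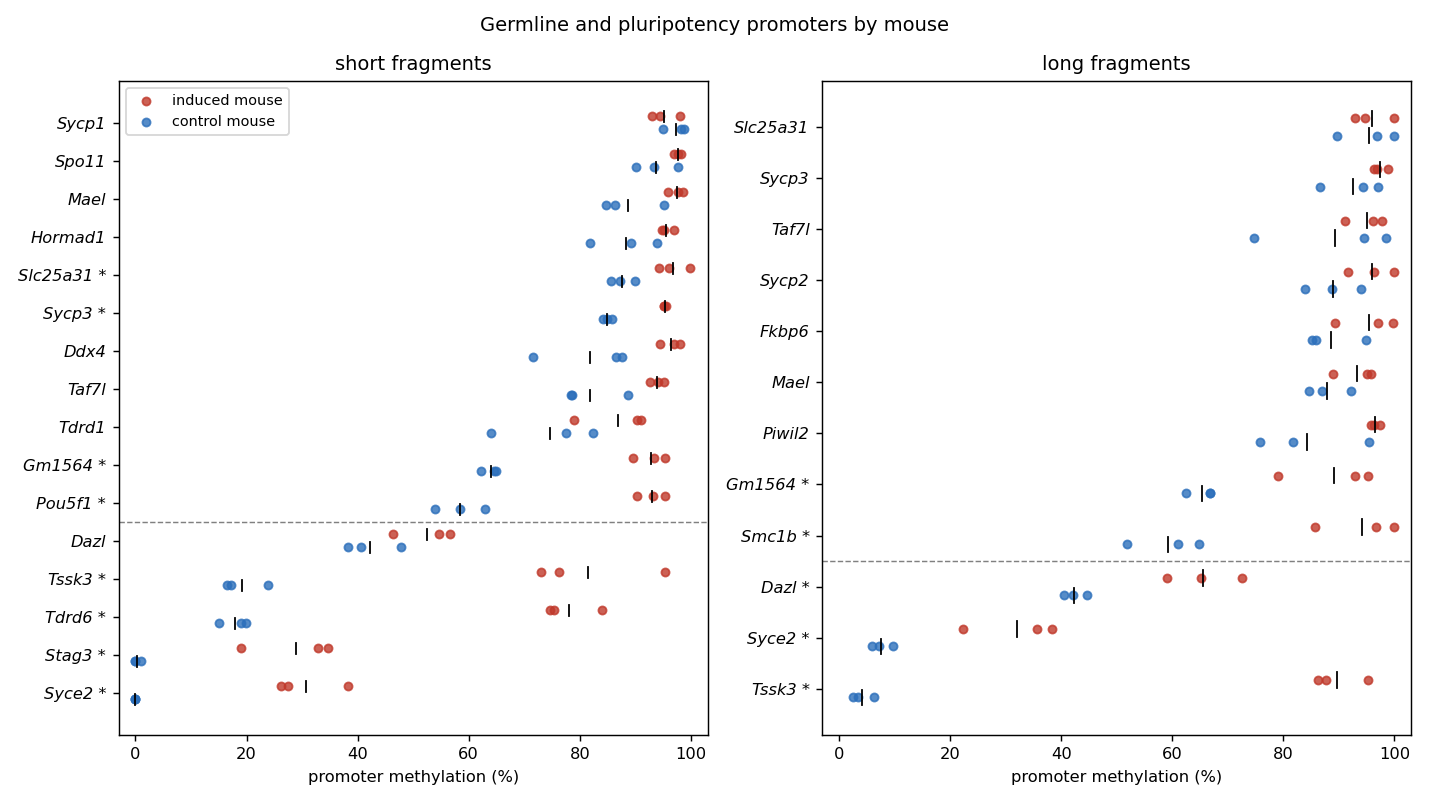
Promoter methylation in percent of each gene by mouse, among short (left) and long (right) fragments, with genes ordered by mean control level. Red points are induced and blue points control mice (n = 3 each), black ticks are group means, the dashed line is the split at 50% and an asterisk marks genes that rose. Below the split the groups overlapped only for Dazl among short fragments.

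Mean levels were higher in induced mice in both classes. In the short fraction the mean over the 11 methylated genes was 94.6% ± 0.954 in induced mice and 81.95% ± 1.76 in control mice (SD, n = 3 each). Over the 5 genes below 50% it was 54.3% ± 3.43 in induced and 15.9% ± 0.935 in control mice. In the long fraction the 9 methylated genes were at 94.7% ± 1.80 in induced and 83.5% ± 2.33 in control mice, and the 3 others at 62.5% ± 3.33 in induced and 18.04% ± 0.438 in control mice. Of the methylated genes 4 of 11 (short) and 2 of 9 (long) rose, beside 24.2% and 12.9% of all genes in that class. Of those below 50%, 4 of 5 and 3 of 3 rose, beside 27.7% and 23.5%. The groups were apart, with induced mice higher, for 8 of 11 methylated genes (short; 48.9% of all genes in the class) and 3 of 9 (long; 30.7%), and for 4 of 5 (39.3%) and 3 of 3 (38.4%) genes below 50%.

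Most of the listed promoters that were methylated in controls ended close to full methylation in induced mice. A mean level of 90% or more was reached by 10 of 11 genes in induced mice and by 2 of 11 in control mice among short fragments, and by 8 of 9 in induced and 2 of 9 in control mice among long fragments. Over all methylated genes these shares were 57.7% in induced and 18.5% in control mice (short), and 51.5% in induced and 18.4% in control mice (long). The germline genes started nearer to 90%. Their median control level was 84.9% (short) and 88.6% (long), against 79.2% and 77.6% in all methylated genes. Of the unmethylated remainder in control mice, the median methylated germline gene gained 68.55% in the short fraction, beside 52.5% over all methylated genes, and 64.02% beside 44.4% in the long fraction. Germline genes below 50% gained a median of 30.7% of the remainder (short, n = 5) and 40.3% (long, n = 3), beside 0.457% and 0.850% over all genes below 50%. The sets did not start alike. Median control levels were 17.96% (short) and 7.62% (long) in these germline genes, against 0.123% and 0.0633% in all genes below 50%.

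**Figure D3:**
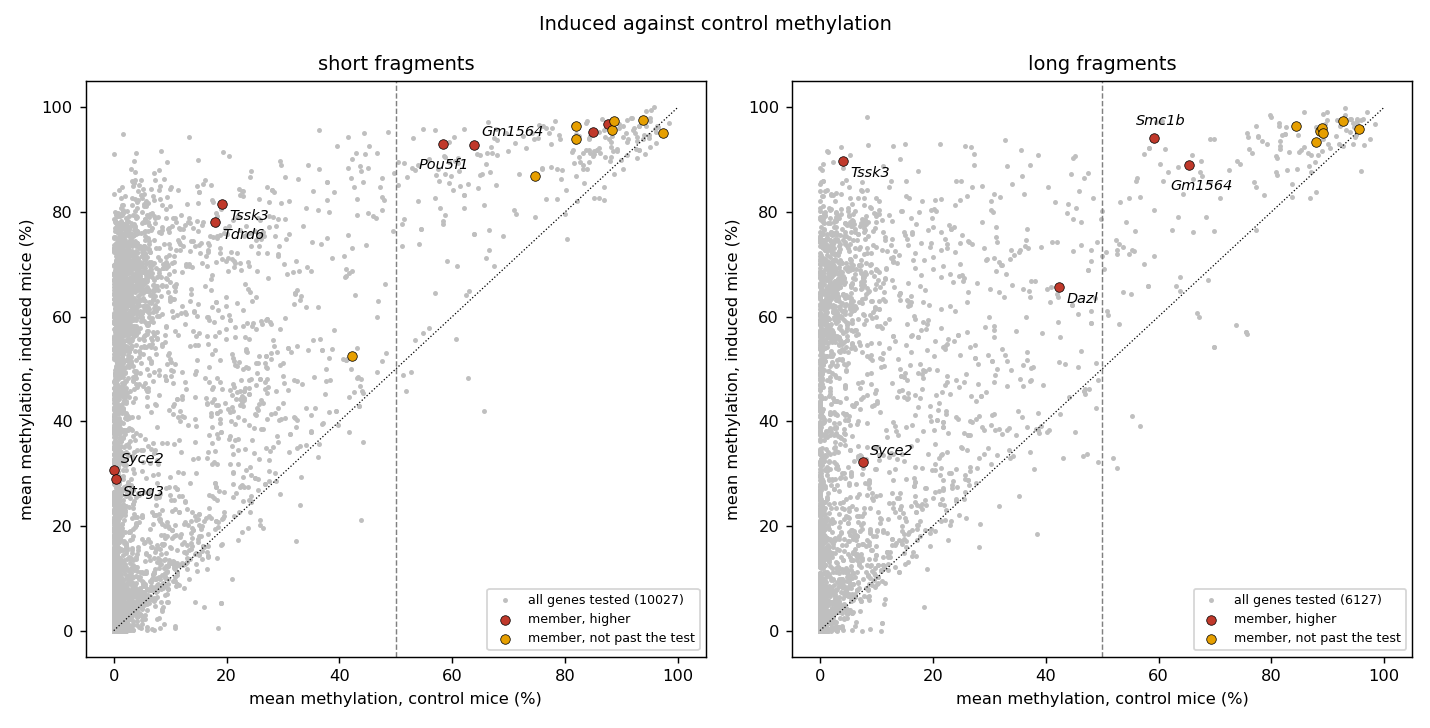
Mean methylation in induced mice (vertical, percent) against control mice (horizontal, percent) for short (left) and long (right) fragments; grey points are all genes tested, red points germline and pluripotency genes that rose, orange points those that did not pass the test, the dashed line marks 50% and the dotted line equal levels. Methylated genes of the set lie in the upper right corner, with induced means from 86.8% to 97.6% among short fragments.

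Pou5f1 and Dazl, genes of pluripotent and early germ cells, started at intermediate levels. Pou5f1 (Gene ID 18999), which encodes the pluripotency factor Oct4, was at 90.2%, 93.2% and 95.4% in induced mice and at 62.9%, 58.4% and 53.95% in control mice among short fragments. The groups were far apart, with a rise of 34.5 ± 2.83 points (SE; limma adjusted p = 0.00122). It was the only pluripotency gene of the list with all 6 values in a fraction. Dazl (13164), an RNA-binding protein needed for germ cell formation, was at 72.6%, 59.01% and 65.2% in induced and 44.6%, 42.05% and 40.4% in control mice among long fragments. It rose there by 23.2 ± 3.91 points (SE; limma adjusted p = 0.0168), with adjusted p from 0.0579 to 0.0769 without induced mouse 3 or control mouse 1, 2 or 3. Among short fragments Dazl was at 56.6%, 54.7% and 46.4% in induced and 47.8%, 38.3% and 40.5% in control mice. There 1 control value lay above the lowest induced value, and the change of 10.4 ± 4.01 points did not pass (limma adjusted p = 0.160).

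The piRNA pathway silences transposons in the germline with small RNAs. Of its listed genes 3 of 4 among short and 3 of 3 among long fragments were methylated in controls, and Tdrd6 was the 1 that rose. Of further genes of the pathway 2 of 9 (short) and 0 of 5 (long) were methylated in controls. Of these further genes 3 rose among short and 0 among long fragments (limma, also 0 among long at an unadjusted p under 0.05). Over all genes 27.6% (short) and 23.2% (long) rose, and the counts among short fragments were near that share. Tdrd6 (210510), a tudor protein of germ cell granules, was at 74.6%, 75.3% and 84.1% in induced and 19.95%, 14.97% and 19.0% in control mice. This was a rise of 60.04 ± 3.20 points (SE; limma adjusted p = 0.000447), and it held whichever mouse was left out. Ddx4, the germ cell RNA helicase Vasa, averaged 96.5% ± 1.83 in induced and 81.9% ± 8.91 in control mice (SD, n = 3 each) without overlap, and did not pass (limma adjusted p = 0.116). Its control mouse 1 was lowest at 71.65%, and without that mouse the change was 9.42 points in place of 14.6, with an adjusted p of 0.0210. Tdrd1, another tudor protein, was at 86.8% ± 6.84 in induced and 74.7% ± 9.48 in control mice, with overlapping values. Mael was at 97.4% ± 1.35 in induced and 88.7% ± 5.62 in control mice among short and at 93.3% ± 3.83 in induced and 87.9% ± 3.87 in control mice among long fragments; without control mouse 2 it passed among short fragments (limma adjusted p = 0.00886). Piwil2, a Piwi protein that binds piRNAs, was at 96.5% ± 0.811 in induced and 84.3% ± 9.98 in control mice among long fragments, and passed only without control mouse 3 (limma adjusted p = 0.0240). Fkbp6, a co-chaperone of the pathway, was at 95.4% ± 5.46 in induced and 88.6% ± 5.43 in control mice and did not pass.

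Genes of the meiotic chromosome axis, cohesin and synaptonemal complex fell on both sides of the split. Syce2 (71846), of the central element of the complex, was at 38.3%, 27.55% and 26.3% in induced mice and at 0% in all 3 control mice among short fragments. It rose by 30.7 ± 3.58 points (SE; limma adjusted p = 0.00362), whichever mouse was left out. Among long fragments Syce2 was at 22.3%, 35.6% and 38.4% in induced and 5.91%, 7.19% and 9.76% in control mice. This was a rise of 24.5 ± 4.85 points (limma adjusted p = 0.0274). When a mouse was left out, the rise passed only without induced mouse 1 (limma adjusted p up to 0.108 without another mouse). Stag3 (50878), a subunit of meiotic cohesin, was at 32.9%, 19.07% and 34.6% in induced and 0%, 1.08% and 0% in control mice among short fragments. The groups were well apart at 28.5 ± 4.66 points (SE; limma adjusted p = 0.0113), and leaving out control mouse 1 gave an adjusted p of 0.0547 and control mouse 3 one of 0.0541. Both promoters were partly methylated in induced mice, at 30.7% (Syce2) and 28.9% (Stag3) on average.

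Smc1b (among long fragments only), Sycp3, Hormad1, Sycp1 and Sycp2 were methylated in controls. Smc1b (140557), the meiotic cohesin subunit, was at 85.7%, 96.6% and 100% in induced and 64.8%, 61.1% and 51.9% in control mice among long fragments. It rose by 34.8 ± 5.48 points (SE; limma adjusted p = 0.0138), with adjusted p = 0.0548 without induced mouse 2 and 0.0602 without control mouse 2. Sycp3 (20962), a component of the chromosome axis, was at 95.1%, 95.5% and 95.2% in induced and 84.2%, 85.8% and 84.8% in control mice among short fragments. Its rise of 10.3 ± 0.457 points (SE; limma adjusted p = 0.000303) held whichever mouse was left out. Among long fragments Sycp3 was at 97.3% ± 1.35 in induced and 92.6% ± 5.44 in control mice with overlap and did not pass. Hormad1, an axis protein, was at 95.6% ± 1.12 in induced and 88.3% ± 6.12 in control mice among short fragments, and Sycp2, of the lateral element, among long fragments at 96.02% ± 4.15 in induced and 88.9% ± 5.07 in control mice, and neither passed. Sycp1, the transverse filament protein, was the 1 gene of the set with a lower mean in induced mice, at 95.15% ± 2.58 against 97.3% ± 2.04 in control mice (SD, n = 3 each; limma adjusted p = 0.526). Of the 4 listed recombination genes Spo11, which makes the meiotic DNA breaks, was measured, at 97.6% ± 0.625 in induced and 93.7% ± 3.75 in control mice without passing. Of further recombination genes 1 of 3 rose among short and 0 of 2 among long fragments (limma, also 0 among long at an unadjusted p under 0.05). Over all genes these shares were 27.6% (short) and 23.2% (long). None of the 5 levels was above 50% in controls.

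Among genes of the testis and of spermatids Tssk3 had the largest change of the set. Tssk3 (58864), a testis kinase, was at 87.7%, 86.2% and 95.3% in induced and 2.57%, 6.35% and 3.48% in control mice among long fragments. It rose by 85.6 ± 2.89 points (SE; limma adjusted p = 0.000364). Among short fragments it was at 73.05%, 76.3% and 95.3% in induced and 17.2%, 23.95% and 16.4% in control mice, a rise of 62.3 ± 6.91 points (limma adjusted p = 0.00308). Both calls held whichever mouse was left out. 1700125D06Rik (now Fam229a), whose start lies 420 bases from that of Tssk3 on the opposite strand in GRCm38.p6, had identical values in all 12 libraries, so the level cannot be assigned to one of the pair. The same holds for Stag3 and Gpc2, whose starts are 572 bases apart, in all 6 short-fragment libraries.

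Gm1564, Slc25a31 and Taf7l were methylated in controls. Gm1564 (268491), now named Meioc and known for keeping germ cells in meiosis, was at 93.4%, 89.6% and 95.3% in induced and 64.96%, 64.6% and 62.2% in control mice among short fragments. It rose by 28.8 ± 1.78 points (SE; limma adjusted p = 0.000615), whichever mouse was left out. Among long fragments it was at 78.95%, 95.2% and 92.97% in induced and 66.7%, 66.8% and 62.5% in control mice. This was a rise of 23.7 ± 5.02 points (limma adjusted p = 0.0339). When a mouse was left out, the rise passed only without induced mouse 1. Slc25a31 (73333), the ADP/ATP carrier of sperm mitochondria, was at 99.8%, 94.3% and 96.02% in induced and 89.99%, 87.3% and 85.7% in control mice among short fragments. Its rise of 9.06 ± 1.93 points (limma adjusted p = 0.0278) was lost without induced mouse 3 or control mouse 2 or 3 (adjusted p from 0.0800 to 0.104), and among long fragments it was at 95.9% ± 3.68 in induced and 95.5% ± 5.33 in control mice. Taf7l (74469), a germ cell relative of a general transcription factor subunit and encoded on the X chromosome, was at 93.9% ± 1.25 in induced and 81.85% ± 5.89 in control mice among short fragments without overlap and did not pass (limma adjusted p = 0.0600; 0.00502 without control mouse 1). Among long fragments Taf7l was at 94.99% ± 3.45 in induced and 89.2% ± 12.8 in control mice with overlap. Control mouse 2 had a mean level over X-linked genes of 5.21% (short) and 6.49% (long), against 34.6% to 39.7% in the other two control mice and 53.1% to 58.1% in induced mice. Taf7l itself was at 78.35% and 74.65% in that mouse. Without it the Taf7l change was 10.3 points among short (limma adjusted p = 0.177) and -1.53 points among long fragments (adjusted p = 0.790), against 12.1 and 5.76 points with all mice, so the direction turned among long fragments.

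The fractions sample different CpGs of a promoter, and 8 genes had values in all 12 libraries. None of the 8 differed between fractions in its change (limma interaction with mouse as a random block, adjusted p under 0.05), beside 4.71% of the 5309 genes fitted, and 2 of 8 had an unadjusted p under 0.05. The long minus short difference in change was 23.3 points for Tssk3 (95% interval 6.75 to 39.8; limma adjusted p = 0.136) and 12.9 points for Dazl (0.423 to 25.4; adjusted p = 0.322). For Syce2 the difference was -6.19 points (-20.15 to 7.77; adjusted p = 0.719) and for Gm1564 -5.14 points (-17.1 to 6.86; adjusted p = 0.719). Neither sign was stable: without induced mouse 1 the difference was 2.50 points for Syce2 and 0.213 points for Gm1564, without induced mouse 2 it was -9.51 and -9.80 points, and without induced mouse 3 it was -11.6 points for Syce2. Without induced mouse 3 Tssk3 passed (27.4 points; limma adjusted p = 0.00414), and without control mouse 2 Sycp3 passed (-9.07 points; limma adjusted p = 0.0215).

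**Figure D4:**
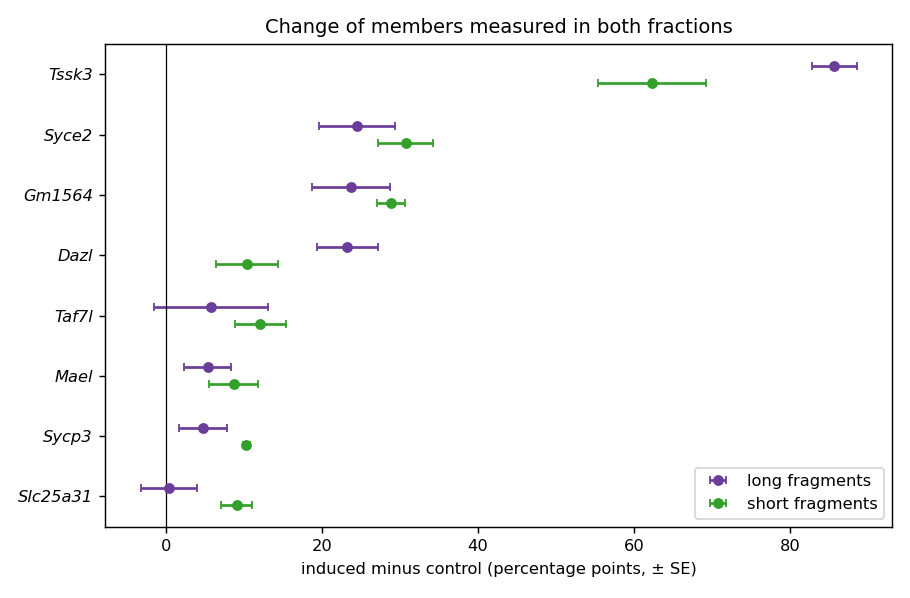
Change in promoter methylation (induced minus control, percentage points, with its standard error from limma) for the 8 genes with values in all 12 libraries, with long fragments (purple) above short fragments (green). Tssk3 rose by 85.6 and 62.3 points, while Slc25a31 changed by 0.40 points among long and 9.06 among short fragments.

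A further 135 genes were followed from a list chosen by role in the germline or in pluripotency. The list was not limited to genes confined to such cells. Of the 135 genes, 54 were measured among short and 36 among long fragments. Among short fragments 7 of the 54 were methylated in controls, beside 2.26% of all genes, and 26 rose, beside 27.6%. Among long fragments 3 of the 36 were methylated, beside 2.66%, and 13 rose, beside 23.2%. None fell (limma; 0 lower at an unadjusted p under 0.05 in either fraction). The largest rises among short fragments were Zpbp, a sperm protein that binds the egg coat, at 83.1% ± 6.85 in induced and 6.90% ± 11.96 in control mice, Cpeb1, a regulator of stored mRNA in oocytes, at 75.8% ± 6.77 in induced and 2.06% ± 0.925 in control mice, L1td1, an RNA-binding protein of pluripotent cells, at 81.4% ± 9.15 in induced and 8.49% ± 2.13 in control mice, and Sox2, the pluripotency factor, at 74.7% ± 5.76 in induced and 1.89% ± 0.852 in control mice (SD, n = 3 each; limma adjusted p from 0.000294 to 0.00211). Zpbp was at 0% in control mice 1 and 2 and at 20.7% in control mouse 3. Among long fragments Cpeb1 was at 83.3% ± 4.81 in induced and 2.37% ± 0.882 in control mice, the embryonic signal Nodal at 78.4% ± 8.15 in induced and 5.603% ± 5.58 in control mice (among short fragments 56.4% ± 13.5 in induced and 17.9% ± 12.9 in control mice, limma adjusted p = 0.0557), the pluripotency factor Sall4 at 73.4% ± 1.86 in induced and 1.72% ± 1.43 in control mice, and the germ cell helicase Ddx25 at 69.98% ± 9.48 in induced mice and 0% in all 3 control mice (limma adjusted p from 9.09e-05 to 0.00179). The calls of these 7 genes in the fraction named held in every alternative run. Median control levels over this further list were 2.08% (short) and 3.92% (long), against 78.3% and 86.1% over the listed genes above. The lists were not chosen alike, so these medians do not compare like sets.

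Of the other 18 listed genes, 4 had values in part of the libraries. Tex14 (a protein of germ cell bridges), Tex101 (a germ cell surface protein), Asz1 (a piRNA pathway protein of germ cell mitochondria) and Zfp42 (the pluripotency marker Rex1) had values from 57.9% to 100% in every library that listed them. In a fit over genes with at least 2 libraries per group, which called 26.9% of short-fraction and 20.7% of long-fraction genes higher, 6 listed genes without all 6 values in a fraction could be fitted and 1, Smc1b among short fragments, rose. Tdrd5, Tdrd9, Piwil1, Piwil4, Mov10l1, Tex19.1, Syce1, Rec8, Dmc1, Tex11, Tex15, Brdt, Nanog and Dppa3 were not analysed here. Of the 11 of these 14 with a RefSeq window, 7 had no CCGG in it, beside 2 of the 17 windows of genes that were measured. Over all 27025 genes with a window, 12106 had none. Stag3 and Tssk3 were measured without a CCGG in the window. Why the 14 genes lacked values was not tested.

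The libraries listed 10358 to 10838 genes (short) and 7278 to 8108 (long), with no reads or coverage given, so the depth is unknown and counting error cannot be set beside the levels. Promoters of colon epithelium markers were mostly close to unmethylated, with medians of 0.17% in induced and 0.338% in control mice among short fragments (6 of 18 markers measured). Among long fragments the medians were 0.228% in induced and 0.307% in control mice (8 of 18). The highest control mean of a marker was 1.59% (short) and 22.8% (long). Of these markers 0 rose (limma, also 0 at an unadjusted p under 0.05), beside 27.6% (short) and 23.2% (long) of all genes. Of 12 stromal and endothelial markers 5 (short) and 3 (long) were measured, of which 4 and 3 rose, beside the same shares of all genes, with medians of 62.96% in induced and 1.99% in control mice (short) and 65.7% in induced and 1.18% in control mice (long). None of the 12 immune markers had all 6 values. Methylation of these promoters does not show which cells the samples held, and their part in the results was not tested.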

How the data were processed

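Reduced representation bisulfite sequencing libraries were made from colon epithelial cells of 3 induced and 3 control mice, 2 size fractions each, and sequenced on a Genome Analyzer II, per the labels' protocols. The values deposited by the authors are methylation fractions averaged over the CpGs of each gene's RefSeq promoters, per the file headers, 1 library per table. The aligner, the genome build, the extent of a promoter and any minimum coverage are not stated in the sources here. Fractions were multiplied to percent. Genes in all 6 libraries of a fraction were compared with limma 3.58.1 in R 4.3.3 (lmFit and eBayes on percent levels), Benjamini-Hochberg adjusted over all genes of the fraction, threshold 0.05, and each adjusted p comes from this fit unless another is named. The interaction was fitted in limma for the 5309 genes that all 12 libraries hold, mouse being a random block (consensus correlation 0.0674), since the 2 libraries of a number come from 1 mouse; same-mouse deviations correlated at 0.0449 to 0.577 across genes. The code was tested on simulated data. Gene names, neighbours and promoter sequences come from RefSeq tables of GRCm38.p6, which held 12076 (99.82%) of the gene IDs, and its start sites need not be those the authors used. Figures used matplotlib 3.10.9.

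Members, lists and tests were chosen with earlier results of these data known. The text names all listed genes with full values, the 4 largest called changes per fraction of the further list, and genes with values identical to a listed gene; neighbouring starts within 1000 bases were looked up after the values were seen. Alternatives were a logit scale, a looser presence filter, RefSeq promoters, a trended robust variance, a replicate block, shared promoters counted once, 1 fit over both fractions, other class splits and leaving out each mouse.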

Additional observations from a re-analysis of the deposited data

Results flagged for a closer look

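Some listed genes were outside the comparisons because a library lacked them, and in 4 of these cases every induced value lay above every control value. Values of Tex101 among short and Hormad1 among long fragments overlapped between the groups. Over all genes with values in all 6 libraries, induced mice lay apart and higher for 39.5% (short) and 38.2% (long). That share was not computed for genes with missing values. In a fit over genes in at least 2 libraries per group, where 26.9% of 10582 short-fraction and 20.7% of 7631 long-fraction genes rose, Smc1b among short fragments was at 82.6%, 80.1% and 74.4% in induced and at 19.4% and 4.13% in 2 control mice, a rise of 67.25 points (limma adjusted p = 0.00456). Its control level there was 11.8%, against 59.3% among long fragments. Ddx4 among long fragments was at 100% and 99.1% in 2 induced and 32.3% and 82.1% in 2 control mice, a difference of 42.4 points (limma adjusted p = 0.442). Stag3 among long fragments was at 28%, 21.7% and 59.7% in induced and at 20% in each of 2 control mice, a difference of 16.5 points (limma adjusted p = 0.606), and Gpc2 had the same values. Tex14 among long fragments was at 97.8%, 98.8% and 99.96% in induced and 95.3% and 90.4% in 2 control mice, a difference of 5.99 points (limma adjusted p = 0.148), and Rad51c, whose start lies 559 bases away, had the same values. Asz1, which had too few values for the fit, went the other way: it was at 90% in 1 induced and 97.2% and 90.6% in 2 control mice among short fragments, and at 98.0% in 1 induced and 99.5%, 100% and 98.2% in 3 control mice among long fragments.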

How the results depend on the processing

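No gene of the set fell under any alternative run, and every call kept its direction. The short-fraction count of 8 stayed between 5 and 9: it was 5 of 8 genes in 1 fit over both fractions, which called 1567 of 5309 genes higher there, and 6 to 9 when a mouse was left out. The long-fraction count of 5 was 3 on the logit scale and 1 to 5 when a mouse was left out, with 882 to 1527 genes higher over all genes. With the replicate number as a block it was 7 (short) and 1 (long), with 651 of 6127 genes higher among long fragments; the numbers name mice only, since same-numbered induced and control mice had deviations that correlated at -0.0498 to 0.0736, and not every mouse correlated best with its own number. On the logit scale Ddx4 and Taf7l passed among short fragments (limma adjusted p = 0.0271 and 0.0241), and Slc25a31 (short), Smc1b (long) and Gm1564 (long) did not. No difference between fractions passed; 1 did on the logit scale (Syce2) and 0 to 1 when a mouse was left out. The change of Slc25a31 among long fragments, which did not pass, was -0.0251 on the logit scale and -2.54 to 2.67 points when a mouse was left out, and that of Taf7l -1.53 points (without control mouse 2) to 10.4 points. With the split at 20% or 80%, 12 or 8 of 16 genes (short) and 10 or 7 of 12 (long) counted as methylated. Of these, 4 or 2 (short) and 3 or 0 (long) rose, against 4 of 11 and 2 of 9 at 50%; below the split at 80%, 6 of 8 and 5 of 5 rose, so the counts by class depend on the split. The cause of these shifts was not tested. Tables without coverage allowed no minimum depth.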
